A study of Mus musculus with 10 samples.

Results

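The bearing of early life stress (ELS) on hippocampal gene expression was examined among mice that had all been swum, by setting ELS mice exposed to acute swim stress (ELS+AS) against controls exposed to the same swim (AS). The members are the 14986 genes whose value averaged at least 3 over the 4 groups, out of 20171 genes with a usable symbol in a table of 20196, and the 2 swum groups account for 5 of the 10 libraries on record. The groups were adult male C57BL/6 mice: ELS+AS with 3 libraries, AS with 2, unswum ELS mice with 3 and unswum, non-ELS controls with 2, although the study's methods give 3 libraries for each group. ELS meant limited nesting material over a wire grid during postnatal days 2 to 12, with weaning on day 21. AS, which the labels call FST, lasted 6 min in a beaker holding 2 L of water kept at 25°C, and tissue was taken after 1 h of recovery from mice aged 70 to 90 days. Each library pooled the hippocampi of 5 to 6 mice. The sample records give the genotype as wild type, whereas the methods describe Gprin3-BacTRAP mice, which carry a tagged ribosomal protein under the Gprin3 regulatory region, in all 4 groups.

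In translating ribosome affinity purification (TRAP), ribosomes that carry a tag in a chosen cell type are pulled down and the mRNA on them is sequenced. Gprin3 was used to reach pyramidal neurons of CA3, the hippocampal field that receives the mossy fibers of the dentate gyrus and is known for losing dendritic branches under prolonged stress. Swimming releases glucocorticoids and switches on immediate early genes, and stress in early life is known to alter how the adult hippocampus responds to both. The deposited values are regularized log (rlog) values on the log2 scale, on which a difference of 1 is a 2-fold change, and differences of weakly expressed genes are drawn toward 0. The table holds 1 value for each gene and group. No value therefore has an error, an n or a test, and the sources used here do not give the way libraries were merged into a group value or whether a batch correction went into it. A difference of over 0.5 is used below as a fixed size, not as a significance call.

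ELS+AS and AS mice were close for most genes, and differences over 0.5 leaned toward higher values in ELS+AS mice. The median difference, ELS+AS minus AS, was −0.0032, the quartiles were −0.077 and 0.084, and 59.2% of genes lay within 0.1. A total of 201 genes (1.34%) were higher by over 0.5 in ELS+AS mice and 52 (0.347%) were lower by over 0.5, whereas at any size 49% were higher and 51% lower. The largest differences did not lean this way, as 5 genes were higher and 4 lower by over 1. The highest gene was Mfge8, which encodes a secreted protein that tags dying cells for phagocytes, with a value of 9.38 in ELS+AS mice, against 8.23 in AS, 8.57 in ELS and 8.61 in control mice, so that the ELS+AS group stood above and the AS group below both unswum groups. The lowest was Tnfrsf25, a death domain receptor of the TNF family, with 4.01 in ELS+AS mice, against 5.31 in AS, 4.52 in ELS and 4.57 in control mice. Its difference of −1.30 was the largest of either sign, at a low level of expression. Among genes averaging 13 or more, 13 were higher by over 0.5 and 0 were lower, whereas among those between 3 and 5 the counts were 24 and 22. At the threshold on the mean, Sh3tc1 lay just inside (3.063 in ELS+AS and 3.119 in AS mice) and Ube2u just outside (3.041 in ELS+AS and 3.117 in AS mice).

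**Figure D1:**
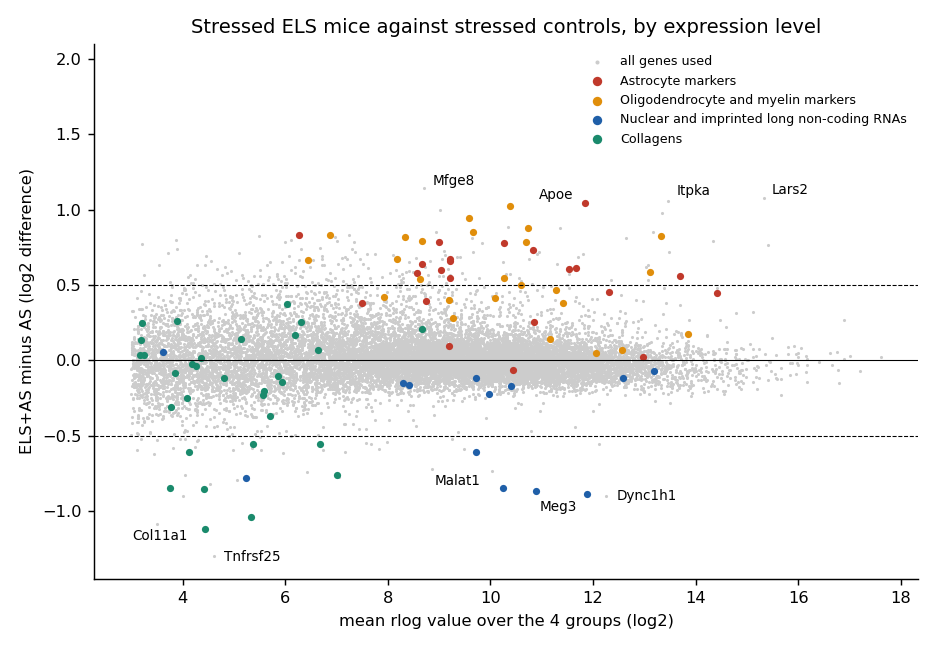
Difference between ELS+AS and AS mice (log2, vertical axis) against the mean rlog value over the 4 groups (horizontal axis), with 1 point per gene and dashed lines at 0.5 and −0.5. Astrocyte and myelin markers lie mostly above 0, up to 1.04 for Apoe, and several nuclear long non-coding RNAs and collagens lie below −0.5.

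Genes of glial cells made up a large group on the high side. All 25 markers of oligodendrocytes and myelin were higher in ELS+AS than in AS mice, 14 of them by over 0.5, with a median difference of 0.55. Of 22 astrocyte markers 21 were higher and 14 passed 0.5 (median 0.59), and of 22 microglia markers 21 were higher but only 2 passed 0.5 (median 0.34). Precursors of oligodendrocytes came between, with 9 of 12 higher, 4 of them by over 0.5, and a median of 0.39. All members of these 4 lists were measured above the minimum mean. Over the 78 genes of the 4 lists, 73 were higher, 33 passed 0.5 and 0 fell below −0.5, with a median of 0.43, against 1.34% of all genes past 0.5 and a median of −0.0032. In RNA pooled from whole hippocampus, more cells of a type, more RNA per cell of that type and more carry-over of its RNA into the pull-down cannot be told apart.

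Among astrocyte genes, Apoe, the main lipid carrier of the brain, had 12.59 in ELS+AS mice, against 11.54 in AS, 11.73 in ELS and 11.55 in control mice. The ELS+AS group was the only one to stand apart, and the other 3 lay within a narrow range. The glutamate transporter gene Slc1a3 (10.78 in ELS+AS, 10.001 in AS, 10.06 in ELS and 10.20 in control mice) and Phgdh, the first enzyme of serine synthesis (10.85 in ELS+AS, 9.97 in AS, 10.28 in ELS and 10.24 in control mice), were likewise highest in ELS+AS mice. Gfap, the intermediate filament of astrocytes, was at 12.08 in ELS+AS and 11.47 in AS mice, and the water channel gene Aqp4 at 9.06 in ELS+AS and 8.42 in AS mice. Not all astrocyte genes shared this. Slc1a2, the main glutamate transporter of astrocytes, had 13.02 in ELS+AS and 13.01 in AS mice, and S100b, a calcium-binding protein, had 10.63 in ELS+AS and 10.69 in AS mice.

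In several myelin genes the AS group was the lowest of the 4. Mag, an adhesion protein of the inner myelin layer, had 10.02 in ELS+AS mice, against 9.08 in AS, 9.39 in ELS and 9.82 in control mice. Values for Cldn11, which forms the tight junctions of myelin, were 10.05 in ELS+AS, 9.20 in AS, 9.51 in ELS and 9.90 in control mice. In both genes the ELS+AS value was highest, the control value came next and the AS value was lowest. The iron carrier gene Trf (10.90 in ELS+AS, 9.87 in AS, 10.14 in ELS and 10.59 in control mice) had the same order. The list was not uniform, as Mobp, another myelin protein, had 12.29 in ELS+AS, 12.24 in AS, 12.16 in ELS and 11.55 in control mice, and Mbp, the myelin basic protein, was higher by 0.17 in ELS+AS than in AS mice. Among microglia genes, the protease gene Ctss was at 7.48 in ELS+AS and 6.84 in AS mice, with 7.02 in ELS and 6.80 in control mice.

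Markers of neurons did not move as a block. Of 18 markers of CA3 and CA2 pyramidal cells 5 were higher and 13 lower in ELS+AS mice, with 0 past 0.5 in either direction, a range of −0.22 to 0.23 and a median of −0.09. Grik4, a kainate receptor subunit typical of CA3, had 9.62 in ELS+AS and 9.84 in AS mice, and Gprin3, whose regulatory region drives the tag, had 6.73 in ELS+AS, 6.92 in AS, 6.70 in ELS and 7.47 in control mice. Markers of CA1 pyramidal cells had a median difference of 0.09 (8 of 10 higher, 0 past 0.5). Of 16 dentate granule markers 15 were higher, with a median of 0.32 and 3 past 0.5, among them the transcription factor gene Prox1 (9.45 in ELS+AS, 8.88 in AS, 9.04 in ELS and 9.45 in control mice). This neuronal list was thus displaced about as far as the microglia list, which had 21 of 22 higher, a median of 0.34 and 2 past 0.5. Interneuron markers had a median of 0.13, with 17 of 24 higher and 3 past 0.5. Among all genes 49% were higher and 1.34% were higher by over 0.5. Endothelial and mural markers (median −0.09, 7 of 25 used higher) and choroid plexus markers (median −0.09, 4 of 12 used higher) did not share the pattern of the glial lists.

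These markers also bear on what the purified RNA contained. Per kilobase of transcript, the median rlog level of the astrocyte list was 8.54 in ELS+AS and 7.85 in AS mice, and that of the myelin list was 9.15 in ELS+AS and 8.51 in AS mice. The CA3 and CA2 list stood at 7.21 in ELS+AS and 7.38 in AS mice on the same scale. Microglia markers (5.63 in ELS+AS and 5.30 in AS mice) and precursor markers (5.32 in ELS+AS and 4.67 in AS mice) stood below it. The astrocyte and myelin medians were thus above the CA3 and CA2 median in both swum groups, whereas those of the other 2 glial lists were below it. Such medians depend on which genes a list holds, and the presynaptic release machinery, for example, stood at 9.83 in ELS+AS and 9.88 in AS mice. The share of each cell type in the RNA was therefore not measured. No astrocyte or myelin marker used was at 0, since their lowest levels were 6.76 in ELS+AS and 5.94 in AS mice. Without the genes of the 4 glial lists, 168 genes remained higher by over 0.5 and 52 lower. The lists do not hold every gene of glial cells, and Phgdh, given above among astrocyte genes, was outside them. The 168 are thus not all free of a glial source.

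**Figure D2:**
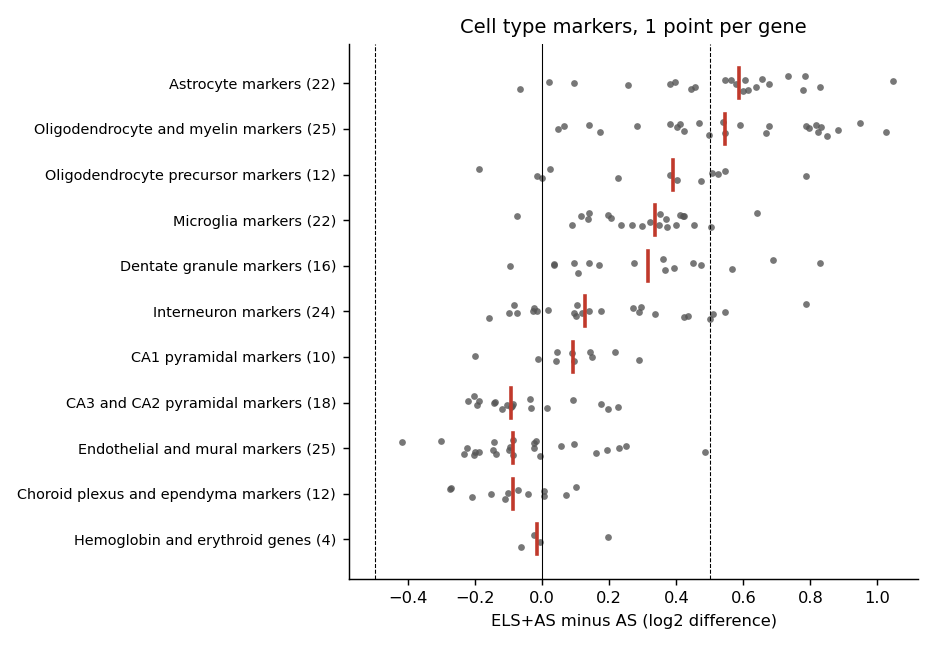
Difference between ELS+AS and AS mice (log2) for the markers of 11 cell types, with 1 point per gene, the red bar at the median and the number of genes in brackets. The astrocyte and myelin medians, 0.59 and 0.55, lie to the right of the dashed line at 0.5, and the CA3 and CA2 median is −0.09.

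To see which swum group departed, each was placed against the mean of the 2 unswum groups. Of the 201 genes that were higher in ELS+AS mice, 143 had the ELS+AS value above and the AS value below all other groups. In 34 the ELS+AS value alone lay outside the other 3, and in 24 the AS value alone did. Among the 52 lower genes these counts were 45, 2 and 5. The median distance from the unswum mean was 0.37 in ELS+AS and −0.28 in AS mice for the higher genes, and −0.34 in ELS+AS and 0.29 in AS mice for the lower genes. Since the groups were ranked on the values that chose these genes, the counts are a description only. All 4 glial lists had the larger median distance in ELS+AS mice. It was 0.51 in ELS+AS and −0.10 in AS mice for astrocyte markers, and 0.40 in ELS+AS and −0.19 in AS mice for myelin markers. For precursor markers it was 0.36 in ELS+AS and 0.01 in AS mice, and for microglia markers 0.40 in ELS+AS and 0.05 in AS mice.

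**Figure D3:**
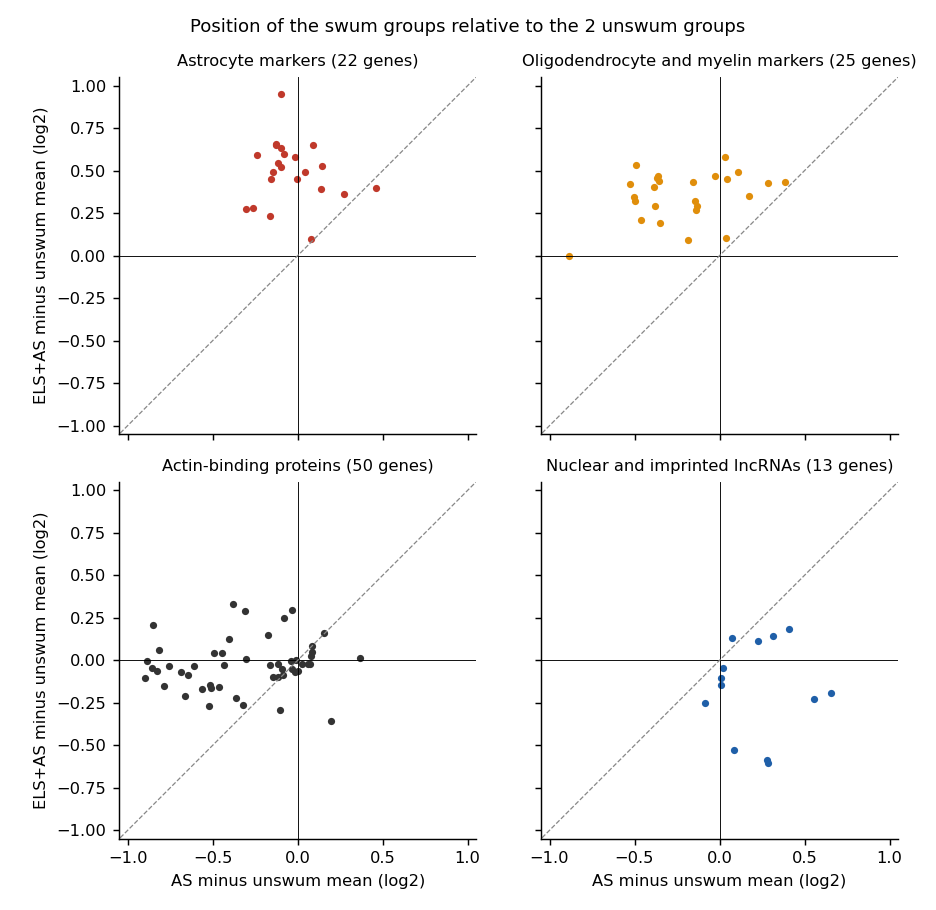
Distance of the ELS+AS value (vertical axis) and of the AS value (horizontal axis) from the mean of the 2 unswum groups (log2), with 1 point per gene and a dashed line where the 2 distances are equal. Astrocyte markers lie high at an AS distance near 0, actin-binding proteins lie left at an ELS+AS distance near 0, and several long non-coding RNAs lie low and to the right.

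A group of actin-binding and spectrin genes showed the reverse arrangement, with the AS group alone set apart. The list was drawn up after the values were seen and is given as a description. Of its 50 genes, all measured above the minimum mean, 38 were higher in ELS+AS than in AS mice, 15 by over 0.5 and 1 lower by over 0.5, with a median of 0.31, against 49% higher, 1.34% higher by over 0.5 and 0.347% lower by over 0.5 among all genes. The median distance from the unswum mean was −0.03 in ELS+AS and −0.31 in AS mice. Itpka, which bundles actin in dendritic spines and phosphorylates inositol trisphosphate, had 13.83 in ELS+AS mice, against 12.77 in AS, 13.64 in ELS and 13.60 in control mice. For Sptan1, the alpha subunit of brain spectrin, the values were 15.56 in ELS+AS, 14.80 in AS, 15.70 in ELS and 15.56 in control mice. In each, 3 groups were nearly level and AS was lower by more than 0.7.

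The same arrangement was found for Dbn1, the spine actin-binding protein drebrin (13.65 in ELS+AS, 12.93 in AS, 13.78 in ELS and 13.59 in control mice). It was found again for the nonmuscle myosin gene Myh10 (13.15 in ELS+AS, 12.53 in AS, 13.22 in ELS and 13.21 in control mice) and for Gsn, the actin-severing protein gelsolin (10.94 in ELS+AS, 10.06 in AS, 10.99 in ELS and 10.91 in control mice). Gsn also belongs to the glial marker lists above, so it is counted in both places. Limch1, which activates nonmuscle myosin, was the member with the next largest difference after Itpka and Gsn, at 11.60 in ELS+AS and 10.72 in AS mice. Flna, filamin A, was the member that went past 0.5 the other way, with 7.36 in ELS+AS and 7.91 in AS mice. Outside the list, the motor adaptor gene Fez1 had 13.52 in ELS+AS, 12.67 in AS, 13.25 in ELS and 13.25 in control mice.

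Several long non-coding RNAs were on the low side. Of 16 nuclear and imprinted long non-coding RNAs 13 passed the minimum mean, of which 12 were lower in ELS+AS mice, 5 by over 0.5, with a median of −0.17. Over all genes, 51% were lower and 0.347% were lower by over 0.5. Meg3, a maternally expressed RNA of the Dlk1 to Dio3 imprinted cluster, had 11.35 in ELS+AS mice, against 12.24 in AS, 12.00 in ELS and 11.90 in control mice. Snhg11, a host gene of small nucleolar RNAs, had 10.37 in ELS+AS, 11.24 in AS, 10.97 in ELS and 10.94 in control mice. Both stood lowest in ELS+AS and highest in AS mice. Malat1, an RNA of nuclear speckles, was instead high in AS mice, with 9.93 in ELS+AS, 10.78 in AS, 10.33 in ELS and 9.92 in control mice. Mirg, the host of microRNAs in the cluster of Meg3, was at 4.93 in ELS+AS and 5.71 in AS mice, and Miat, another nuclear RNA, at 9.31 in ELS+AS and 9.91 in AS mice. Neat1, the scaffold of paraspeckles, differed by −0.15 only.

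The lean extended to other non-coding genes. In the GENCODE annotation, 71.5% of 228 lincRNAs, 72.7% of 183 antisense genes and 73.1% of 160 processed transcripts were lower in ELS+AS mice at any size, with medians of −0.08, −0.10 and −0.09, against 49.8% and a median of 0.00 for 13969 protein coding genes. Of the 52 genes lower by over 0.5, 12 were non-coding and 33 protein coding, whereas of the 201 higher genes 0 were in those non-coding classes and 196 were protein coding. Snhg11, in the list of long non-coding RNAs above, is annotated as protein coding in GENCODE and counts there. Among coding genes, Dync1h1, the heavy chain of cytoplasmic dynein, had 11.69 in ELS+AS, 12.60 in AS, 12.16 in ELS and 12.53 in control mice. Srrm2, a scaffold protein of nuclear speckles, had 11.86 in ELS+AS, 12.42 in AS, 12.09 in ELS and 12.09 in control mice, the ELS+AS value below and the AS value above level unswum groups. Grin1os, an antisense gene of the NMDA receptor gene Grin1, was at 3.47 in ELS+AS and 4.37 in AS mice, while Grin1 was at 11.79 in both. The library kit did not keep the strand, so reads from any stretch that this pair shares cannot be told apart. The extent of that overlap was not examined.

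Several collagens, structural proteins of the extracellular matrix, were also low in ELS+AS mice. Of 44 collagen genes, a list likewise drawn up after the values were seen, 31 passed the minimum mean, of which 12 were higher at any size, 0 were higher by over 0.5 and 8 were lower by over 0.5, against 0.347% of all genes and 1.1% of genes averaging between 3 and 5. The fibrillar chain gene Col11a1 had 3.85 in ELS+AS mice, against 4.97 in AS, 4.40 in ELS and 4.51 in control mice. Its partner chain Col5a1 had 3.95 in ELS+AS, 4.80 in AS, 4.51 in ELS and 4.40 in control mice. Col6a1, of the beaded microfibrils, had 4.79 in ELS+AS, 5.83 in AS, 5.03 in ELS and 5.65 in control mice. Most of these genes were weakly expressed, and Col4a2, a basement membrane chain, was among the strongest at 6.56 in ELS+AS and 7.32 in AS mice. The most typical fibroblast chains did not share the difference, since Col1a1 differed by −0.10 and Col1a2 by 0.14. The median of the collagens was −0.10, and it turned to 0.17 when only genes averaging at least 6 were kept.

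Immediate early genes, which neurons switch on within minutes of activity, were nearly level between the swum groups. Of 10 Fos and Jun genes that passed the minimum mean 6 were higher and 0 passed 0.5, with a median difference of 0.05, while the list's median distance from the unswum mean was 0.66 in ELS+AS and 0.50 in AS mice. Fos had 10.10 in ELS+AS mice, against 10.17 in AS, 8.78 in ELS and 8.94 in control mice. Egr2 had 7.46 in ELS+AS, 7.58 in AS, 5.96 in ELS and 6.13 in control mice. Both genes were more than 1 unit above their unswum values in each swum group, with or without ELS. Arc, which acts in AMPA receptor endocytosis, had 12.44 in both swum groups, against 11.66 in ELS and 11.88 in control mice. Fosb differed by −0.14, Junb by 0.06, Egr1 by 0.02, Egr4 by 0.02 and Nr4a1 by 0.03 between the swum groups. Npas4, which is driven by calcium entry, departed furthest, with 7.53 in ELS+AS, 7.90 in AS, 6.77 in ELS and 7.28 in control mice, or −0.37 between the swum groups.

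**Figure D4:**
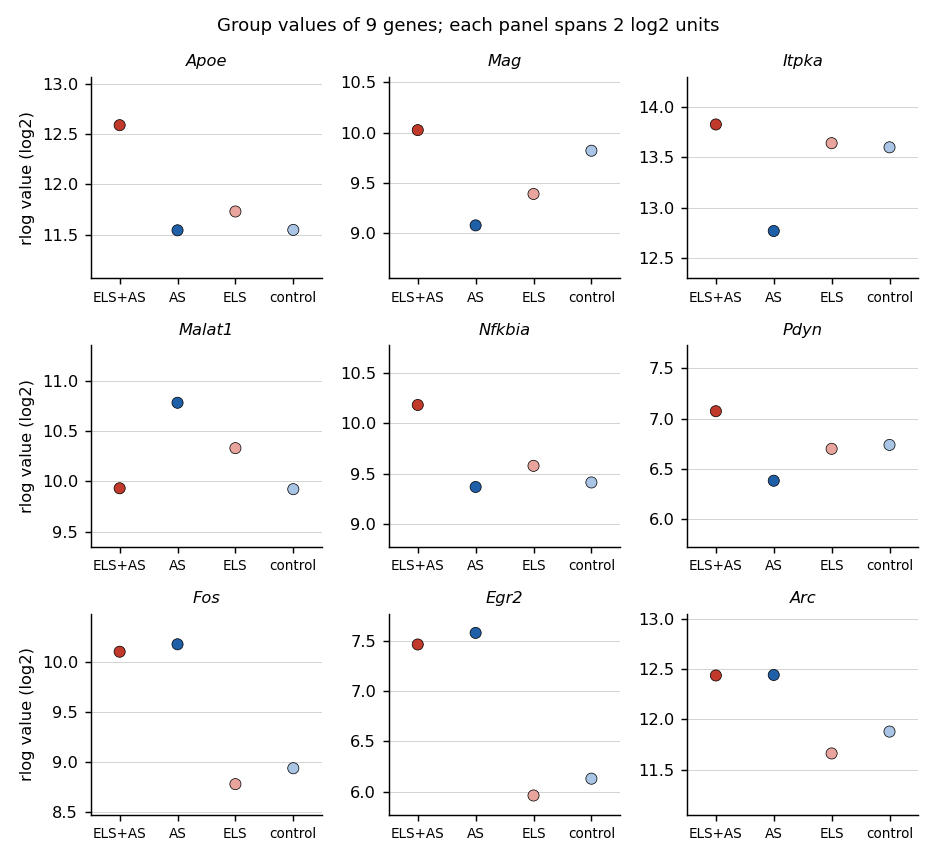
rlog values of 9 genes in the ELS+AS, AS, ELS and control groups, with 1 point per group and 2 log2 units on each vertical axis. Apoe and Nfkbia stand apart in ELS+AS mice, Itpka in AS mice, and Fos, Egr2 and Arc are level between the swum groups and above the unswum groups.

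Genes of the glucocorticoid axis were mostly close between the swum groups. The glucocorticoid receptor gene Nr3c1 had 11.23 in ELS+AS, 11.05 in AS, 11.17 in ELS and 11.15 in control mice, and the mineralocorticoid receptor gene Nr3c2 had 11.42 in ELS+AS, 11.29 in AS, 11.32 in ELS and 11.90 in control mice. For Nr3c2 the control group stood above the other 3. Fkbp5, a chaperone partner of the receptor that glucocorticoids are known to induce, had 11.13 in both swum groups. Hsd11b1, which regenerates active glucocorticoid in cells, was at 7.61 in ELS+AS and 7.32 in AS mice. Of 30 glucocorticoid-responsive genes 22 were higher in ELS+AS mice, with a median of 0.06 and 3 past 0.5, against 49% of all genes higher and 1.34% higher by over 0.5. The clock gene Per1 (0.05) and the phosphatase gene Dusp1 (0.06) differed little, and the metallothionein genes Mt1 and Mt2 differed by −0.11 and −0.03.

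A few stress-responsive genes did stand high in ELS+AS mice alone. Nfkbia, which encodes the inhibitor that holds NF-κB in the cytoplasm and is induced by both NF-κB and glucocorticoids, had 10.18 in ELS+AS mice, against 9.37 in AS, 9.58 in ELS and 9.41 in control mice. Vcam1, an adhesion molecule induced by inflammation, had 7.17 in ELS+AS, 6.54 in AS, 6.59 in ELS and 6.55 in control mice. In both, AS mice were within 0.25 of the unswum groups. Sdc4, a cell surface heparan sulfate proteoglycan, had 8.16 in ELS+AS, 7.55 in AS, 7.55 in ELS and 7.22 in control mice. The matricellular gene Cyr61 had 5.14 in ELS+AS, 4.48 in AS, 4.27 in ELS and 4.28 in control mice, and the kinase gene Pim1 had 5.31 in ELS+AS, 4.73 in AS, 4.75 in ELS and 4.70 in control mice. The stress lists as a whole differed. Of 22 NF-κB and cytokine genes 12 were higher, 2 by over 0.5, with a median of 0.02, and of 18 interferon response genes 7 were higher and 0 passed 0.5. Glucocorticoid-responsive genes (22 of 30 higher, 3 past 0.5) and activity-induced synaptic and signaling effectors (21 of 33 higher, 2 past 0.5) leaned higher, each with a median of 0.06. Among all genes 49% were higher and 1.34% were higher by over 0.5. The astrocyte and microglia lists were higher by medians of 0.59 and 0.34 in the same group, and their part in these differences was not tested.

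The promoters of Nfkbia and Sdc4 are shown because these were the genes, among the 4 stress-response genes with the largest differences and a RefSeq promoter entry, that held a searched motif in the 250 bases before the start. Both come from RefSeq on the GRCm38.p6 build and lie on the minus strand, at chr12:55492648-55492897 for Nfkbia and chr2:164443189-164443438 for Sdc4. The RefSeq start of Sdc4 was not matched in a GENCODE transcript. They are written 5′ to 3′ toward the gene, with the match to an NF-κB motif in capitals, which begins 29 bases before the start in Nfkbia and 82 bases before it in Sdc4.
Nfkbia: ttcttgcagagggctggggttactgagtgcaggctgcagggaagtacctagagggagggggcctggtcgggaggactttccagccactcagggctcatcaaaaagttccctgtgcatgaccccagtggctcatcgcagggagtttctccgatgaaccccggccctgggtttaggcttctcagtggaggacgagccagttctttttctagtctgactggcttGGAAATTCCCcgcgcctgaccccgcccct
Sdc4: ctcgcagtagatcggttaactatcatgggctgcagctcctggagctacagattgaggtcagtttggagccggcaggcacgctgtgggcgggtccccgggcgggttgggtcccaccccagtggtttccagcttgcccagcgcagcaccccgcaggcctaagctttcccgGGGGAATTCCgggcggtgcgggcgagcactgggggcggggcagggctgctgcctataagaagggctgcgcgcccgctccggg
The NF-κB motif was searched after the values were seen, on both strands, and was present in 7.25% of 32851 mouse promoters of the same length. The other motifs searched were the CRE TGACGTCA (1.55% of promoters), the AP-1 site TGANTCA (6.75%), the CArG box (1.47%) and the glucocorticoid response element (0.0365%), which Nfkbia and Sdc4 did not hold in these windows. The windows of Pdyn and Cyr61 held none of the 5. A match of letters is a description and not evidence of binding.

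Several neuropeptide genes were higher in ELS+AS mice, without a shift of all peptide lists. Of 18 genes of CRH, PACAP and other stress peptides 11 passed the minimum mean, of which 6 were higher and 1 passed 0.5, with a median of 0.12, and Crh differed by −0.13 and Gal by −0.17. Of 8 opioid peptide and receptor genes 6 passed the minimum mean, of which 5 were higher and 2 passed 0.5, with a median of 0.38. Without a minimum mean that median was 0.227. The shares over all genes were 49% higher and 1.34% higher by over 0.5. Pdyn, the precursor of the dynorphins that dentate granule cells release onto CA3, had 7.07 in ELS+AS mice, against 6.38 in AS, 6.70 in ELS and 6.74 in control mice. Penk, the precursor of the enkephalins, was at 8.50 in ELS+AS and 8.24 in AS mice, and the nociceptin precursor Pnoc at 6.67 in ELS+AS and 6.18 in AS mice. The delta receptor gene Oprd1 was at 5.46 in ELS+AS and 4.89 in AS mice. The more strongly expressed receptor gene Oprl1 differed by 0.09 only, at 9.45 in ELS+AS and 9.36 in AS mice, and Pomc differed by −0.19. Tac1, the precursor of substance P, had 6.47 in ELS+AS, 5.69 in AS, 6.03 in ELS and 5.83 in control mice. Npy, an interneuron peptide, had 9.06 in ELS+AS, 8.56 in AS, 8.59 in ELS and 8.35 in control mice, and Crhbp, which binds and buffers CRH, had 8.63 in ELS+AS, 8.10 in AS, 8.21 in ELS and 8.10 in control mice. The dentate and interneuron lists were themselves higher by medians of 0.32 and 0.13, and their part in the peptide values was not tested.

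Synaptic receptor families were close to level, and list medians within 0.028 of 0 have no direction, since some changed sign with the scaling of the groups. AMPA receptors and their partners had a median of 0.03 (13 of 17 higher), NMDA receptors of 0.00 (4 of 7), kainate receptors of −0.06 (4 of 9) and GABA-A subunits of 0.10 (8 of 12), and each held at most 1 gene past 0.5. Those single genes were Grin2c, an NMDA receptor subunit known from cerebellum and astrocytes (7.91 in ELS+AS and 7.27 in AS mice), and Gabrg1, a GABA-A subunit (6.72 in ELS+AS and 6.10 in AS mice). Among metabotropic receptors it was Grm3, which is prominent in astrocytes (7.58 in ELS+AS and 6.91 in AS mice). Slc17a7, the vesicular glutamate transporter of excitatory neurons, was at 14.29 in ELS+AS and 14.48 in AS mice. Postsynaptic scaffolds were lower in 15 of 18 genes, but with a median of −0.03, and the presynaptic release machinery had a median of 0.02 over 34 genes. Of 74 potassium channel genes 45 were higher and 2 passed 0.5, Kcnk13 (0.60) and Kcnj16 (0.52), against 49% of all genes higher and 1.34% higher by over 0.5.

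Chromatin regulators differed little between the swum groups. H3K9 methyltransferases and heterochromatin proteins, which write and read a repressive histone mark, were higher in 2 of 12 genes with a median of −0.02. The exception in size was Setdb1, a trimethylase of H3K9, with 9.48 in ELS+AS mice, against 9.20 in AS, 9.40 in ELS and 9.62 in control mice, so that the AS group was lowest. Histone demethylases were higher in 18 of 22 genes, with a median of 0.07. Ezh2, the catalytic subunit of the Polycomb complex PRC2, was the only chromatin gene in these lists past 0.5, with 6.20 in ELS+AS, 5.63 in AS, 5.80 in ELS and 5.70 in control mice. Its own list, other histone methyltransferases and PRC2, leaned the other way, with 8 of 27 genes higher and a median of −0.03. For comparison, 49% of all genes were higher and 1.34% were higher by over 0.5. Medians for histone deacetylases and sirtuins (−0.03, 18 genes), DNA methylation genes (−0.02, 14 genes) and chromatin remodelers (−0.02, 25 genes) lay close to that of all genes.

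Genes of translation and respiration formed a flat background. Cytoplasmic ribosomal protein genes had a median of −0.01, and 75 of 83 lay within 0.1, against 59.2% of all genes. Complex I genes had a median of −0.03 over 36 genes and mitochondrial ribosomal proteins of −0.02 over 78. Proteasome subunits were higher in 31 of 38 genes, with a median of 0.09 and 0 past 0.5. Heat shock genes (median 0.04, 12 of 22 higher) and clock genes (median 0.04, 15 of 22 higher) were likewise without a gene past 0.5.

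The effect of ELS in swum mice was set beside that in unswum mice, for which the ELS and control groups enter and no group is shared. Across the 14986 genes the 2 differences had a Spearman correlation of −0.121 and a Pearson correlation of −0.072, a description across genes that share libraries and are not independent. Differences were narrower in swum mice, with an SD across genes of 0.162, against 0.227 in unswum mice, where 195 genes (1.3%) were higher and 288 (1.92%) lower by over 0.5 in ELS mice. Only 8 genes passed 0.5 in both. Of these 7 had opposite signs, among them the Rap exchange factor gene Rapgef5 (10.36 in ELS+AS and 9.59 in AS mice, 10.08 in ELS and 10.86 in control mice) and the neuregulin receptor gene Erbb3 (4.69 in ELS+AS and 4.00 in AS mice, 4.24 in ELS and 4.88 in control mice). The orphan receptor gene Gpr37, expressed by oligodendrocytes, also differed by 0.56 in swum and −0.50 in unswum mice. The gene with the same sign was Col6a1, at −1.04 in swum and −0.62 in unswum mice.

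Gene groups separated the 2 comparisons further. Astrocyte markers had a median of 0.59 in swum and 0.06 in unswum mice, and myelin markers of 0.55 in swum and −0.05 in unswum mice. Microglia markers were higher with ELS in both, with medians of 0.34 in swum and 0.34 in unswum mice. Cytoplasmic ribosomal proteins had −0.01 in swum and 0.34 in unswum mice, and hemoglobin and erythroid genes −0.02 in swum and 0.71 in unswum mice, over 4 genes used. Metallothioneins had −0.11 in swum and 0.81 in unswum mice over 3 genes. Transcript length, found for 98.1% of genes, had a rank correlation across genes of 0.050 with the difference in swum mice, against −0.437 in unswum mice. These differences between swum and unswum mice have no test, as each rests on 1 value per group.

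**Figure D5:**
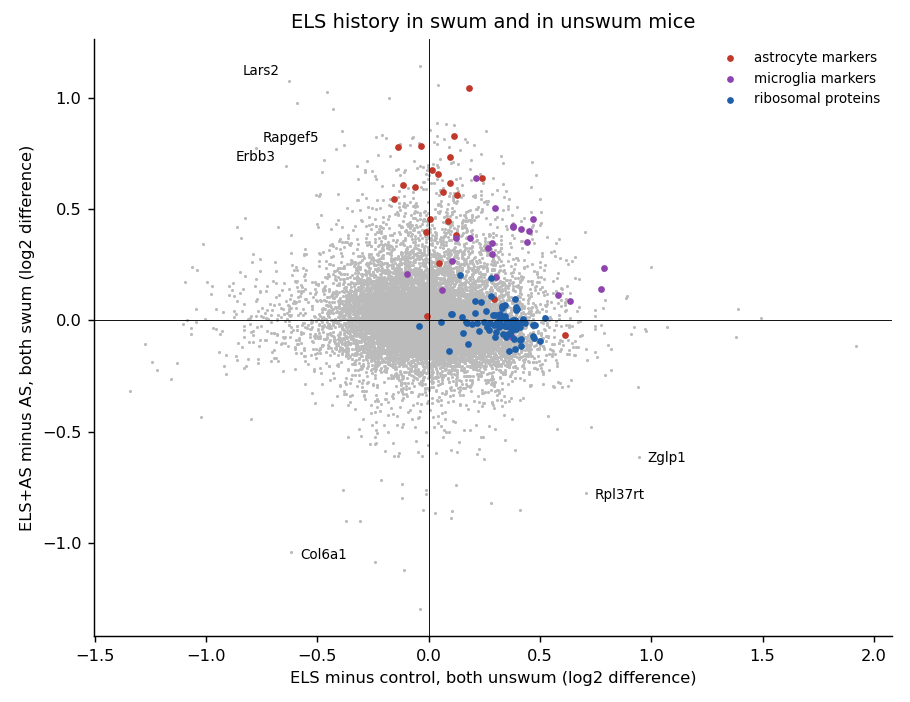
Difference between ELS+AS and AS mice (vertical axis) against the difference between ELS and control mice (horizontal axis), both log2, with 1 point per gene and 3 lists in color. Astrocyte markers spread upward near 0 on the horizontal axis, ribosomal proteins spread to the right near 0 on the vertical axis, and microglia markers lie in the upper right.

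Some of the largest differences belong to genes whose reads can be shared with a near-identical copy. BC002163 had 10.12 in ELS+AS, 9.12 in AS, 8.32 in ELS and 8.50 in control mice, and its transcript was identical to that of the complex I gene Ndufs5 at 317 of 319 aligned bases (99.4%). Ndufs5 differed in the other direction, with 11.36 in ELS+AS, 11.80 in AS, 11.89 in ELS and 11.52 in control mice. The ribosomal protein retrogene Rpl37rt (6.86 in ELS+AS, 7.63 in AS, 7.18 in ELS and 6.48 in control mice) matched Rpl37 at 343 of 344 aligned bases, and Rpl37 differed by 0.01. Values of these copies are uncertain, because quantification can divide reads between them. Lars2, the mitochondrial leucyl-tRNA synthetase gene (15.87 in ELS+AS, 14.79 in AS, 15.02 in ELS and 15.65 in control mice), and the microRNA gene Mir6236 (13.82 in ELS+AS, 12.85 in AS, 13.07 in ELS and 13.66 in control mice) had the same order of the 4 groups, with ELS+AS and control high and AS lowest. The best match between the transcripts of Mir6236 and Lars2 was only 13 bases long, so this pair is not a case of near-identical copies. Whether either shares reads with any other sequence was not examined, so their values are not cleared by this match.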

How the data were processed

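TRAP RNA of mouse hippocampus was sequenced. The authors' reads were trimmed, filtered and aligned to mm10 (Rsubread), and their transcript estimates from Salmon were summarized to genes by tximport before the regularized logarithm of DESeq2 was taken. What the authors deposited is this log2 value, 1 for each gene and group. limma batch correction is named for heatmaps, and tool versions are not given in the sources used here. Read counts, values for each library and depth were not used here, so precision is unknown.

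From these values, 25 symbols turned into dates and 5185 genes averaging below 3 were left out, and differences between groups were computed. There were 58 gene lists, with 2 added after the values were seen. The members, lists and tests were chosen with earlier results of these data known. Genes named are the 15 highest and 15 lowest, the 5 highest and 5 lowest of those averaging at least 6, the 3 members of each list furthest from 0 each way, all members of lists of up to 12, the genes past 0.5 with and without the swim, Gprin3, Nr3c1, Nr3c2 and the genes at the threshold; a few are not reported here. Aqp4, Gfap, Mbp, Arc, Fkbp5, Per1, Neat1, Miat, Flna, Col1a1, Col1a2, Col4a2, Srrm2, the other members named from the 2 added lists, and the copies and partners of named genes were chosen after their values were seen. Levels per kilobase subtract log2 of the length of the longest GENCODE M21 transcript in kilobases. Alternatives were sizes of 0.25 and 1, no minimum mean or one of 6, centring, quantile normalization, removal of the length trend in 50 bins, list means, and leaving out glial markers. The code was tested on simulated data. Python 3.11.15, numpy 2.4.6, pandas 2.3.3, scipy 1.17.1 and matplotlib 3.10.9 were used.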

Additional observations from a re-analysis of the deposited data

How the results depend on the processing

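The counts depended on the size chosen, with 1033 genes higher and 389 lower in ELS+AS mice at 0.25, and 5 higher and 4 lower at 1. With a minimum mean of 6, 154 were higher and 21 lower. Centring gave 167 higher and 68 lower, quantile normalization 179 and 58, and removal of the length trend 195 and 49. Under these 3 scalings the median of each list moved by at most 0.1, as did the difference of each of the 413 named genes under centring and quantile normalization. Under at least 1 of the 3 scalings, 11 list medians changed sign, all within 0.028 of 0, among them those of AMPA and NMDA receptors, potassium channels, the release machinery, corticosteroid receptors, NF-κB genes and cytoplasmic ribosomal proteins. With the mean in place of the median, the NMDA receptor list had 0.109, metabotropic glutamate receptors 0.176, long non-coding RNAs −0.381 and collagens −0.203. Without a minimum mean the opioid list had a median of 0.227, and with a minimum mean of 6 the collagens turned to 0.170.

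No paired analysis was possible because the table gives 1 value for each group and none for a replicate. For the same reason no replicate was left out in turn and no spread between libraries is given, and batch and group cannot be told apart.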
